A study of Mus musculus with 2 samples.

Results

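Krüppel-like factors (Klf) are C2H2 zinc-finger transcription factors, and the distribution of the mRNAs of 10 of them between polysomes and lighter fractions was measured in the mouse fibroblast line NIH3T3, untreated or under stress of the endoplasmic reticulum. The members were Klf2, Klf3, Klf4, Klf5, Klf6, Klf7, Klf9, Klf10, Klf13 and Klf16, found as the non-control spots whose gene name on the array equalled one of these symbols. They were 10 of 28080 gene names on the array and were read by 15 probes. Of these, 14 probes, covering all 10 genes, had an average log2 signal above 4.5 on both arrays, and the remaining probe, for Klf5, was at background on both.

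Control cells were left untreated, and stressed cells received 10 µM thapsigargin for 3 h, which blocks calcium uptake into the endoplasmic reticulum. Both groups were the same line grown with bovine serum, with no genetic change named. Lysates were run on sucrose gradients, and RNA was collected as a polysome-bound fraction (P, labelled with Cy3) and as free plus monosomal RNA (FM, labelled with Cy5). Each condition was 1 two-colour array of RNA pooled from 3 preparations, so the differences between the conditions could not be set against replicates, and no test was made.

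Klf proteins share a set of zinc fingers at the carboxy terminus, joined by short conserved linkers, that bind GC-rich and CACCC elements in promoters. Their amino-terminal parts differ and recruit different partners, among them the CtBP and Sin3 corepressors and the acetyltransferases p300 and CBP. Several Klf genes are early response genes in fibroblasts, switched on by serum or growth factors, and their mRNAs and proteins are short-lived. Arrest of translation under endoplasmic reticulum stress goes through phosphorylation of eIF2α, under which the mRNAs of some transcription factors, Atf4 being the best known, are still loaded on polysomes.

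The measure of polysome association was log2 P/FM, the Cy3 over the Cy5 signal of a probe on the log2 scale, after subtraction of the local background. A value of 0 stands for equal signals in both fractions. The average of log2 P and log2 FM signal, called A, was the measure of abundance. Changes are thapsigargin minus control on the log2 scale.

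Of the non-control spots, 42.5 and 44.6% had a P signal well above background on the control and thapsigargin arrays, and 46.3 and 45.4% an FM signal. No spot was saturated. Of the fibroblast markers, 12 of 16 probes passed the signal filter, from all 7 genes, whereas none of 5 endothelial and none of 5 epithelial probes did, and 1 of 7 blood probes, for Cd3e, did. Over the 17173 probes that passed the filter the median log2 P/FM was 0.22 in control cells and -0.29 after thapsigargin, and the median change was -0.61. The median change in A was 0.37, and those in the P and FM signals were 0.07 and 0.67. No array-wide scaling was applied to the values given, so each change is to be read against these medians.

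All probes were 60 bases long, and no Klf probe shared a run of 20 bases with any other probe on the array. The sequences below are those on which the results turn, with positions from the deposited files on mm9. No annotation of that build was used, so exons are given only where the position of a probe spans more bases than the probe has. The Klf5 and Klf13 probes are printed because each crosses an exon junction and lies in the zinc-finger region. The capitals mark the codons of the linker between adjacent fingers. The Klf5 probe spans 9733 bases on the plus strand at chr14:99702656-99712388, and the Klf13 probe 46229 bases on the minus strand at chr7:71036629-71082857.
Klf5: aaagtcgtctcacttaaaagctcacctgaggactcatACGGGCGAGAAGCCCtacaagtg
Klf13: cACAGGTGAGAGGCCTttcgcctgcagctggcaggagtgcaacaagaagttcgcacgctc

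The Klf2 probes are printed because they gave opposite results. The GC-rich probe lies at chr8:74843761-74843820 and the 3′ probe at chr8:74845137-74845196, both on the plus strand, with starts 1376 bases apart. The capitals mark CG dinucleotides, of which the GC-rich probe holds 10 and the 3′ probe 3. Of the 3′ probe the first 30 bases are given.
Klf2, GC-rich probe: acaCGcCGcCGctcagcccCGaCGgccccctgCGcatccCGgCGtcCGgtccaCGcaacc
Klf2, 3′ probe: tgtatataagactatgacCGattgtatttc

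The first 30 bases are given of the probes with the largest upward shifts, with no base marked. The upstream and the 3′ probe of Klf6 lie on the plus strand at chr13:5866706-5866765 and chr13:5869371-5869430, the Klf7 probe on the minus strand at chr1:64125344-64125403, and the Klf10 probe on the minus strand at chr15:38224543-38224602.
Klf6, upstream probe: atagcacccatggtgcatggtgtttgggtg
Klf6, 3′ probe: tttaatactaagcagtccattctggtcagg
Klf7: gagggggaggggctgacacatgccctgaaa
Klf10: tggtcatgttcttagcaccacagtgtctgg

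Over the 14 Klf probes the median log2 P/FM was -0.23 in control cells and 0.41 after thapsigargin, and the median change was 0.38, against -0.61 over all probes. Klf6 and Klf7 mRNAs had the largest upward shifts, from below 0 to above 0. Klf16 and the GC-rich Klf2 probe had the largest downward shifts. Klf10 stood out by abundance, with signals more than 10-fold higher in both fractions. Klf4 was higher in both fractions by nearly the same factor as processed here, but not in some other ways of processing.

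By the change in log2 P/FM, 3 of 14 Klf probes were higher by 1 or more, where 14.1% of all probes were. Another 2 of 14 were lower by 1 or more, where 38.4% of all probes were. The 3 higher probes were both Klf6 probes and the Klf7 probe, and the 2 lower ones were those of Klf16 and the GC-rich Klf2 probe.

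**Figure D1:**
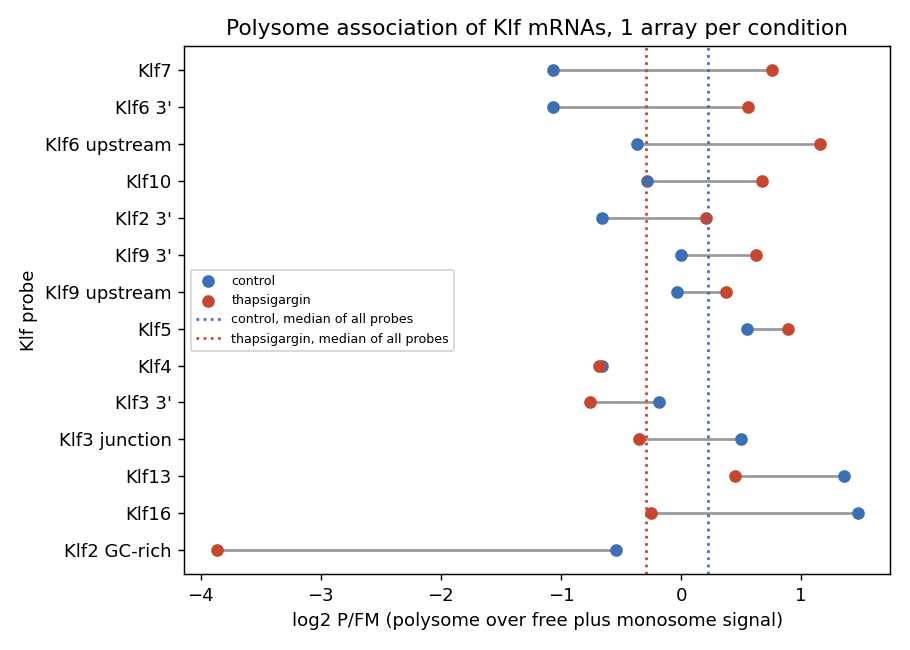
The log2 ratio of polysome (P) to free plus monosome (FM) signal of each of the 14 Klf probes (vertical axis) in control (blue) and thapsigargin-treated (red) cells, 1 array each, with no error bars because there were no replicates; dotted lines are the medians of all 17173 probes. Klf7 and Klf6 lie at -1.07 to -0.37 in control cells and at 0.56 to 1.15 after thapsigargin, and the GC-rich Klf2 probe lies at -3.87 after thapsigargin.

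Klf6, an injury-induced factor and growth suppressor, was read by probes whose starts lie 2665 bases apart. At the 3′ probe the background-subtracted P and FM signals were 1643 and 3442 in control cells and 6283 and 4267 after thapsigargin. Its log2 P/FM was therefore -1.07 and 0.56, a change of 1.63. At the upstream probe the P and FM signals were 560 and 723 in control cells and 2275 and 1024 after thapsigargin, and log2 P/FM was -0.37 and 1.15, a change of 1.52. The FM signal was the larger one in control cells and the P signal after thapsigargin, at both probes. The mean change was 1.57 ± 0.08 (SD, n = 2 probes), and the difference between the probes was small beside the median SD of 0.32 between probes of the same accession over 3502 accessions. That SD covers differences between probes on 1 pair of arrays and not those between cultures.

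Klf7, best known from neurons and adipocytes, gave P and FM signals of 181 and 378 in control cells and 788 and 466 after thapsigargin. Its log2 P/FM was -1.06 and 0.76, and the change was 1.82. It was the largest among the Klf probes as processed here, but the 3′ probe of Klf6 was higher with normexp (1.58 against 1.52), with the processed signals or log ratio of the scanner software (3.20 against 2.44) and after loess (3.19 against 2.42). Of all 17173 probes, 847 had a larger change. For both genes most of the change was in the polysome fraction. The P signal was higher by 2.12 for Klf7 and by 1.94 and 2.02 for the Klf6 probes, and the FM signal by 0.30, 0.31 and 0.50.

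Transcripts with log2 P/FM of 0 or lower in control cells and a change of 1 or more are called inducible here, a class name taken from the study. The 3 probes for Klf6 and Klf7 were in this class, which held 12.7% of all probes. Klf10, with a change of 0.95, was just outside it. Its change was 1.04 with normexp, 1.46 with each array centred on its median and 2.02 with the processed signals or log ratio from that software. It was 2.20 after loess and 3.50 after centring on the spike-in probes, where 20.9 and 77.0% of all probes were higher by 1 or more. It stayed below 1 without background subtraction (0.95) and with median spot signals (0.92). These are changes only. The control value that the class also requires is not given for those settings.

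Klf10, a Sin3-binding repressor known as an early gene of TGF-β signalling, gave P and FM signals of 358 and 434 in control cells and 7009 and 4398 after thapsigargin. The P signal was 19.6-fold and the FM signal 10.1-fold higher. A was higher by 3.82, and only 7 of the 17173 probes had a larger change in A. Its log2 P/FM was -0.28 in control cells and 0.67 after thapsigargin.

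Klf4, one of the reprogramming factors and a brake on the cell cycle in several tissues, gave P and FM signals of 5000 and 7877 in control cells and 12379 and 19836 after thapsigargin. The P signal was 2.48-fold and the FM signal 2.52-fold higher, so that log2 P/FM was -0.66 and -0.68. The change of -0.02 had no settled sign. It was between -0.03 and 2.53 across the ways of processing. As processed here, more signal was thus found in both fractions in nearly the same proportion as before. That did not hold with the processed signals or log ratio of the scanner software (1.89) or after loess (1.85). The 246 probes within 0.5 of its mean A had a median change of -1.75.

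Klf5, which promotes growth of epithelial and smooth muscle cells, gave P and FM signals of 192 and 132 in control cells and 622 and 335 after thapsigargin at the probe printed above. Its log2 P/FM was 0.55 and 0.89, a change of 0.35, and A was higher by 1.52. The probe at background for the same gene name, designed on another transcript record, lies at chr14:99704137-99704196, inside the stretch that the junction-crossing probe passes over.

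Klf9, a Sin3-binding factor induced by thyroid hormone and glucocorticoids, was read by a pair of probes on chromosome 19. At the 3′ probe the P and FM signals were 325 and 326 in control cells and 945 and 614 after thapsigargin. At the upstream probe they were 154 and 157, and then 537 and 414. Both probes thus started from equal signals in the fractions and had more signal in both afterwards. The mean change in log2 P/FM was 0.52 ± 0.16 and that in A 1.41 ± 0.26 (SD, n = 2 probes each).

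A was higher by 1 or more at 8 of 14 Klf probes, or 57.1%, where 12.7% of all probes had such a change. The 8 probes were those of Klf4, Klf5, Klf6, Klf7, Klf9 and Klf10. The P signal was higher by 1 or more at the same 8 probes, where 19.7% of all probes were. For the FM signal the count was 5 of 14, where 30.6% of all probes were, so that the Klf share was close to that of the array. These 5 were Klf4, Klf5, the upstream Klf9 probe, Klf10 and the GC-rich Klf2 probe. The medians over the Klf probes were 1.17 for the change in A, 1.42 for P and 0.72 for FM, against 0.37, 0.07 and 0.67 over all probes. The count for A was 3 of 15 with normexp, and 3 of 14 with the processed signals and with each array centred on its median. Of all probes, 0.598, 5.57 and 2.56% were then that much higher. The median change in A over the Klf probes was then 0.41, 0.79 and 0.67. With normexp all 41141 probes passed the filter, the Klf5 probe at background included. The share of 0.598% is therefore not over the 17173 probes used elsewhere. The RNA total of both fractions was set to a fixed amount for labelling, so all of these are changes relative to the RNA labelled on each array. Within that total the study kept the proportions of P and FM RNA found in each condition. P held more RNA than FM in control cells, and FM more than P after thapsigargin. The measure log2 P/FM includes this difference in input.

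**Figure D2:**
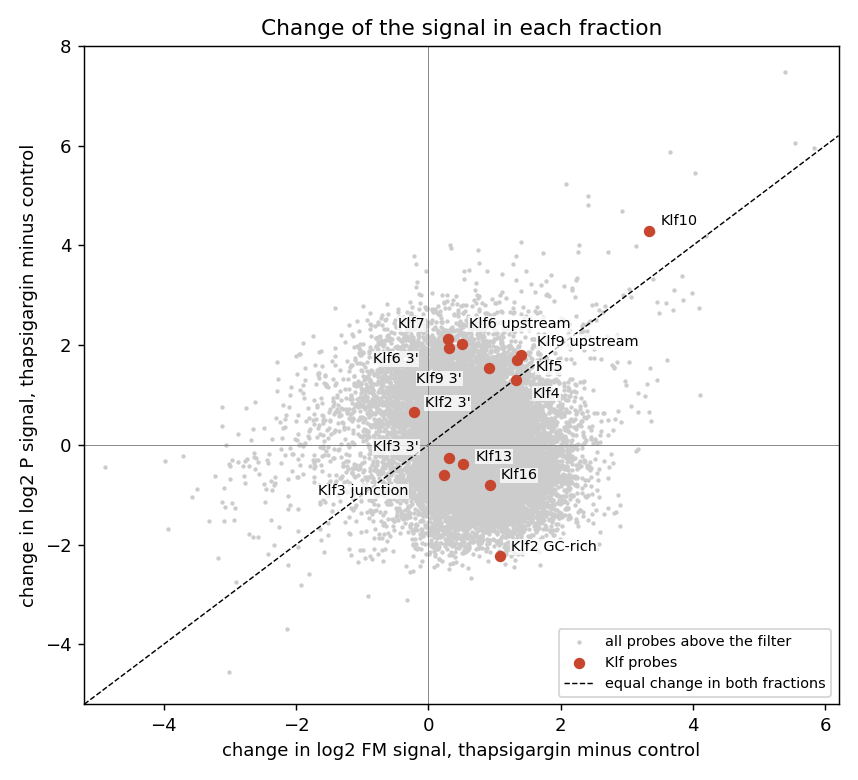
The change in log2 FM signal (horizontal axis) and in log2 P signal (vertical axis), thapsigargin minus control, of all 17173 probes above the filter (grey) and the 14 Klf probes (red); on the dashed line both fractions change equally. Klf4 lies on the line at 1.33 and 1.31, Klf10 lies far out at 3.34 and 4.29, and Klf6 and Klf7 lie above the line with FM changes of 0.30 to 0.50.

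Klf3, a repressor that binds CtBP, was read by a probe that crosses an exon junction, at chr5:65213568-65214148, and by a 3′ probe at chr5:65220543-65220602, both on the plus strand. At the junction probe the P and FM signals were 1020 and 724 in control cells and 667 and 852 after thapsigargin. The change in log2 P/FM, from 0.50 to -0.35, was -0.85, but it was 0.04 with the processed signals of the scanner software, 0.10 after loess and 1.70 after centring on spike-in probes. At the 3′ probe the signals were 175 and 198 in control cells and 145 and 246 after thapsigargin, with a change of -0.58 that became 1.97 after centring on the spike-in probes. The mean change over both probes was -0.71 ± 0.19 (SD, n = 2 probes), close to the median of all probes.

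Klf13, a Sin3-binding factor of lymphocytes and heart, gave P and FM signals of 240 and 93.7 in control cells and 183 and 134 after thapsigargin. Its log2 P/FM was 1.36 and 0.45, and the change was -0.91, which became 0.15 with normexp background correction and 1.64 after centring on the spike-in probes. A differed by 0.06. Klf13 thus remained more abundant in the P than in the FM signal on both arrays.

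Klf16, another Sin3-binding member, was read by a probe that lies on the minus strand at chr10:80030074-80030133. Its P and FM signals were 294 and 106 in control cells and 168 and 201 after thapsigargin. Its log2 P/FM of 1.48 was the highest of the Klf probes in control cells and was -0.25 after thapsigargin, a change of -1.73 that became 0.82 after centring on the spike-in probes. The P signal was lower by 0.80 and the FM signal higher by 0.93, with A differing by 0.06. Among all probes, 18.7% had a lower change, whereas 2772 probes within 0.5 of its mean A had a median change of -0.36.

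Klf2, which restrains growth of endothelial cells and T cells, gave different answers at its probes. At the 3′ probe the P and FM signals were 231 and 364 in control cells and 363 and 314 after thapsigargin, so that log2 P/FM was -0.66 and 0.21, a change of 0.87. At the GC-rich probe they were 23189 and 33840 in control cells and 4937 and 72030 after thapsigargin, with log2 P/FM of -0.55 and -3.87, a change of -3.32. The probes were thus alike in log2 P/FM in control cells and far apart after thapsigargin. Their mean change of -1.23 ± 2.96 (SD, n = 2 probes) describes neither. The changes differed by 4.19, and of 2830 accessions with 2 probes above the filter, 1 (0.0353%) had probes that differed by more. The 133 probes within 0.5 of the mean A of the GC-rich probe had a median change of -1.95. The change at the GC-rich probe was between -3.35 and -0.77 across the ways of processing. After loess it was -1.44, where the 3′ probe had 1.42. The part of signal level in the difference was not tested.

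The GC content was 78.3% for the GC-rich Klf2 probe and 43.3% for the 3′ probe. Only 14 of the probes above the filter (0.0815%), this one included, had a GC content as high. Their median change in log2 P/FM was -2.79, and all 14 were lower by 1 or more. Over the array the median change was -0.08 for the 5466 probes with under 40% GC, -1.14 for the 1702 probes with 50 to 55% and -1.99 for the 61 probes with 70% or more. Probe GC content therefore moved with the measure across the array, and its part in the difference between the Klf2 probes was not tested.

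The Klf probes with upward changes had between 36.7 and 55% GC. The 3′ probe of Klf9 had 36.7%, where the 5108 probes within 2.5 percentage points had a median change of -0.06. The Klf7 probe and the upstream Klf6 probe had 55%, where 2211 such probes had a median of -1.23. The Klf10 probe had 45%, where 5218 such probes had a median of -0.68, and the 3′ probes of Klf2 and Klf6 and the Klf16 probe had 43.3%, where 6423 had a median of -0.63.

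**Figure D3:**
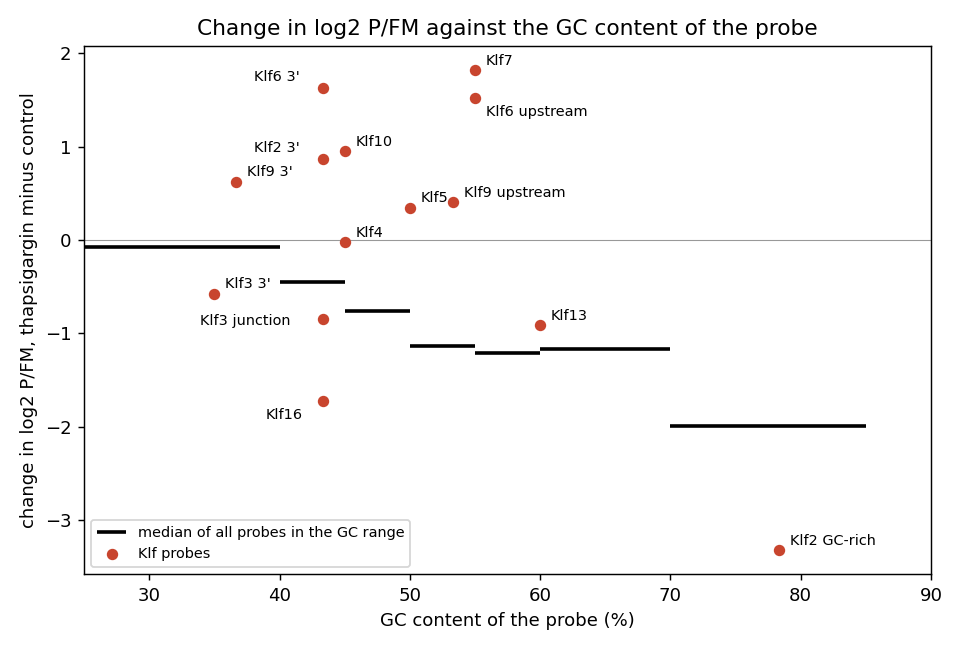
The change in log2 P/FM, thapsigargin minus control (vertical axis), against the GC content of the probe in percent (horizontal axis) for the 14 Klf probes (red), with black bars for the median of all probes in each GC range. The bars go from -0.08 below 40% GC to -1.99 at 70% or more, Klf7 and Klf6 lie above them at 1.52 to 1.82, and the GC-rich Klf2 probe lies at -3.32.

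Transcripts with a change of -0.8 or lower are called sensitive here, again by the name the study uses. Of the Klf probes 4 of 14 were in this class, where 44.4% of all probes were. They were Klf13, Klf16, the junction probe of Klf3 and the GC-rich probe of Klf2, and the calls for the first 3 genes are subject to the changes of sign given above. No Klf probe was resistant, which means at or above 0.8 in log2 P/FM in both conditions, and 3.32% of all probes were. Klf13 and Klf16 met that limit in control cells only, and Klf5 and the upstream Klf6 probe after thapsigargin only.

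The direction of some changes depended on how the arrays were processed. Relative to the median of all probes under the same processing, the changes of Klf2 at the 3′ probe, Klf5, Klf6, Klf7, Klf9 and Klf10 were above 0 in each of the 12 or 13 ways of processing that gave them a value, the reported one included. Those of Klf13, Klf16 and the GC-rich Klf2 probe were below 0 in each of theirs. The changes of Klf7 relative to that median were between 1.13 and 2.64, and those of Klf16 between -1.44 and -0.90. Klf4 was above the median in 12 of 13. The junction probe of Klf3 was above it in 3 of 12 and the 3′ probe in 6 of 12. These ways are not independent. Centring on the median or on the spike-in probes leaves the relative change as it was by construction. The filters and the authors' ratios kept the change of a probe and altered only the median. The processed signals and the log ratio gave the same change. Such counts are therefore not separate repeats of a result.

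**Figure D4:**
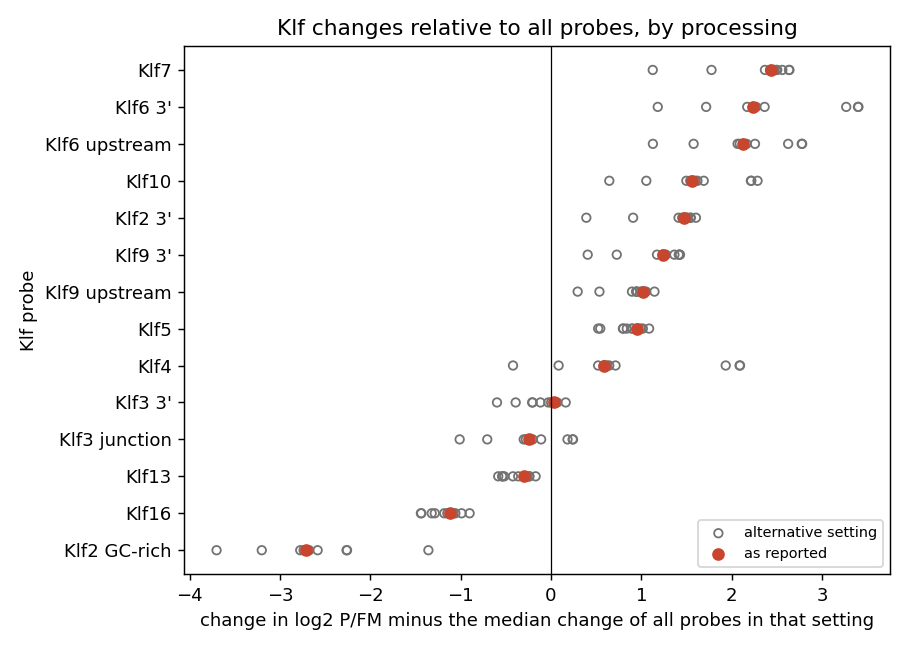
The change in log2 P/FM of each Klf probe minus the median change of all probes under the same processing (horizontal axis), as reported (red) and under each alternative (open circles), for the 14 Klf probes (vertical axis). Klf7 stays between 1.13 and 2.64 and Klf16 between -1.44 and -0.90, while both Klf3 probes lie on either side of 0.

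The other Klf genes, Klf1, Klf8, Klf11, Klf12, Klf14, Klf15 and Klf17, had 13 probes, of which 1 passed the filter, for Klf11, a close relative of Klf10. The log2 P/FM of that probe was -0.06 in control cells and -0.87 after thapsigargin, a change of -0.81. The change became 0.02 with normexp and 1.74 after centring on the spike-in probes. Its FM signal in control cells was not well above background. Klf11 and Klf15 had probes that were well above background only after thapsigargin. For such a probe the signal after thapsigargin was divided by the signal measured in control cells. That control signal was not well above background, so the ratio is uncertain and is not a lower bound. For Klf15, known from muscle and liver metabolism, the ratio was 5.97 in P and 5.26 in FM at 1 probe. The other Klf15 probe stayed at background on both arrays. For Klf11 the ratio was 3.89 in P and 3.46 in FM at 1 probe, and 4.13 in FM at the other. A Klf1 probe was well above background in P only after thapsigargin, with a ratio of 1.46.

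The partners and relatives of the Klf factors are given by lists. Centring on the spike-in probes adds 2.55 to each change in log2 P/FM, so that of the probes named as lower by 1 or more in these lists only those of Sin3b and Odc1 stay below 0 there. With normexp background correction the Map2k5 probe named as lower by 1 or more also turned positive. No other probe named as higher or lower by 1 or more turned sign with the alternatives run on the probe signals.

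Sp factors share the zinc-finger type of the Klf family and bind the same GC boxes. Of their 12 probes 4 passed, from 3 genes, with a median change in log2 P/FM of 0.68, and 2 were higher by 1 or more and none lower, where 14.1 and 38.4% of all probes were. Sp1 had a change of 1.73, from -0.31 to 1.42, with A lower by 0.43. Sp4 had one of 1.06, from -0.11 to 0.95, with A higher by 1.78. The Sp3 probes had changes of 0.30 and 0.13.

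Among the corepressors and coactivators that Klf proteins bind, 14 probes passed, with a median change in log2 P/FM of -0.40, and 1 was higher and 5 lower by 1 or more. The higher one was a probe of Crebbp, the acetyltransferase CBP, at 1.68, while another Crebbp probe had a change of 0.29. The lower ones included a probe of Sin3b, the scaffold of the Sin3 complex, at -2.98, while another Sin3b probe had a change of 0.55. Also lower were the deacetylase Hdac3 at -2.05, Ctbp1 at -1.89, and Fhl3, a cofactor of Klf3, at -1.43. The share higher was 7.1%, where 14.1% of all probes were. The share lower, 35.7%, was near the 38.4% of all probes.

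The route from the kinase Erk5 through Mef2 factors to Klf2 and Klf4 had 10 probes above the filter, with a median change of -0.35, and 1 (10.0%) was higher and 4 (40.0%) lower by 1 or more, where 14.1 and 38.4% of all probes were. Map3k2, an upstream kinase of the route, was the higher one, with log2 P/FM of -1.33 and 1.09. Its relative Map3k3 had changes of -1.18 and -1.17 at a pair of probes, and the factor Mef2d had -1.47. The Erk5 kinase Map2k5 had a change of -1.14 at one probe and of -0.475 at another above the filter. Of 11 probes for ubiquitin ligases that act on Klf proteins none was higher and 3 (27.3%) were lower by 1 or more, where 14.1 and 38.4% of all probes were, with a median of -0.11. The Smurf1 probes above the filter had changes of -2.17 and -0.96, and those of Wwp1, a ligase for Klf5, -1.04 and 0.07.

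Of genes known as targets of Klf factors, 15 probes passed, with a median change of -0.53, and 3 (20%) were higher and 6 (40.0%) lower by 1 or more, where 14.1 and 38.4% of all probes were. Thbd, the anticoagulant receptor that Klf2 and Klf4 activate in endothelium, had a change of 1.67. Tgfbr1, a TGF-β receptor that Klf6 activates, had one of 1.38, and Smad7, the TGF-β inhibitor that Klf10 represses, one of 1.25. The 3 probes of Odc1, the first enzyme of polyamine synthesis, had changes between -3.64 and -3.25, and those of Trp53 had -1.10 and -1.05. The genes of these lists were thus found on both sides of 0, as the array as a whole was.

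Of the 10 Klf genes, 7 had a promoter in the RefSeq table of GRCm38.p6, from 250 bases before to 50 bases after the start. These windows were searched on both strands for the cAMP response element TGACGTCA, which 1.79% of 32851 promoters hold, the C/EBP-ATF site TGATGCAAT, which 0.192% hold, the endoplasmic reticulum stress element, which 0.119% hold, and the CACCC box CCACACCC, which 3.56% hold. None of the 7 promoters held any of them. The GC box GGGGCGGGG was found in 4 of the 7, those of Klf2, Klf3, Klf4 and Klf13, and in 11.4% of all promoters. No match means only that these letters are not in this window. Apart from those 4 genes, the promoters searched are not named here. The search can therefore not be read as covering Klf6, Klf7 or Klf10.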

How the data were processed

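Two-colour Agilent arrays of polysome (Cy3) and free plus monosome (Cy5) RNA were used, 1 per condition, both on the same slide and read in the same scan. Per the file headers, spot and local background intensity values came from Feature Extraction 10.7.1, and the deposited files also hold processed intensity values and a log10 ratio of the dyes (Cy5 over Cy3). Flags of 0 or 1 mark spots well above background, saturated or outliers, per the file headers. The authors also deposited log2 ratios of Cy3 over Cy5, not normalized.

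From the mean signal of each spot its median local background was subtracted, with 0.5 as the lowest value allowed, in limma 3.58.1 (R 4.3.3), and tables were made with pandas 2.3.3 (Python 3.11.15). No normalization was applied. Outlier spots (295, 0.680%) were left out, none of them a Klf spot, and probes with A above 4.5 on both arrays were kept. Each Klf probe was printed as 1 spot. GC content was computed from the probe sequences in the files. The ratio for a probe not well above background in control cells used its own control signal and is not a lower bound. With 1 array per group no test was made, and precision is limited by the number of arrays. The steps were tested on simulated data.

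All 10 members were named with every probe. Of the lists (other Klf genes, Sp factors, corepressors and coactivators, the Erk5 and Mef2 route, ubiquitin ligases, Klf targets), genes with a change of 1 or more and all 4 signals well above background were named, at most 4 per list and direction. Members and lists were chosen with earlier results of these data known. Alternatives were other background corrections, spot signals, scalings and filters, the gene as the unit and the authors' ratios.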

Additional observations from a re-analysis of the deposited data

How the results depend on the processing

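The median change in log2 P/FM over the Klf probes was 0.99 with the processed signals and with the log ratio of Feature Extraction, 1.07 after loess, 0.89 with each array centred on its median and 2.93 after centring on spike-in probes, and the probes higher by 1 or more then numbered 7, 7, 7, 6 and 12 of 14, where 22, 20.7, 20.9, 22.7 and 77.0% of all probes were. The number lower was 1 with normexp, 0 after centring on spike-in probes and 1 without the GC-rich Klf2 probe, an alternative chosen after seeing the data. Of all probes, 8.32% were that much lower with normexp, 0.297% after centring on spike-in probes and 38.4% as reported. With normexp and without background subtraction all 41141 probes passed the filter, 15 Klf probes among them. The values given for these settings are over those probes. The median change in A was 0.41 with normexp, 0.79 with processed signals and 0.67 after centring, and the probes with A higher by 1 or more then numbered 3 in each case (a count whose alternatives were chosen after seeing the data). Changes turned sign for Klf13 (0.15 with normexp, 1.64 with spike-in centring), the junction probe of Klf3 (0.0447 with both Feature Extraction values, 0.10 with loess, 1.70 with spike-in centring), the 3′ probe of Klf3 (1.97) and Klf16 (0.82), the last 2 with spike-in centring only. Klf4, at -0.02, was 1.89 with both Feature Extraction values, 1.85 with loess, 0.49 with median centring and 2.53 with spike-in centring. The spike-in probes themselves changed by -2.44 in median (10 probes), and each centring shifts all probes alike by construction. Median centring and loess also remove array-wide differences between P and FM, that in the amount of RNA labelled included. For the settings other than centring the cause of the moves was not tested. The median change of all probes was 0.39 with normexp, -0.11 without background subtraction, -0.20 with processed signals, -0.19 with the log ratio, -0.08 after loess, -0.10 after median centring and 1.94 after spike-in centring, and the Klf median exceeded it by 0.30 to 1.19 in all settings. The other 45 values for the Klf probes as a whole stayed within 1.5 times or within the spread between probes. Among single probes 95 values did so and 65 moved further, 13 of these with a change of sign, 5 of them for Klf4. No paired analysis was possible because each condition had 1 array. Signals near background, as for Klf11 and Klf15 in control cells, give uncertain ratios only.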
